A study of Mus musculus with 4 samples.

Results

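The 6 chemokine receptor genes Ccr1, Ccr2, Ccr7, Ccr9, Cx3cr1 and Xcr1, out of 32285 genes in the count tables, were followed through the leukocytes of YUMMER1.7 tumors. They were taken by name, as receptors known to mark or steer different leukocyte lineages, and all 6 had unique molecular identifiers (UMIs, each standing for 1 captured RNA molecule) in the data. Earlier results of these data were known at that choice, so the comparisons between lineages describe these genes and are no independent test of them. Their UMIs were counted in 6 lineages, each gated on a marker that is not a receptor under study, with Xcr1 in the dendritic cell gate as the exception. T cells were gated on Cd3e, natural killer (NK) cells on Ncr1, plasmacytoid dendritic cells (pDCs) on Siglech, mature dendritic cells (mature DCs) on Fscn1, conventional type 1 dendritic cells (cDC1s) on Xcr1 or Clec9a, and monocytes and macrophages (Mo/Mac) on Lyz2 together with Ly6c2 or C1qb.

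YUMMER1.7 is a mouse melanoma cell line with an added load of ultraviolet-induced mutations, and it was grown under the skin of male C57BL/6J mice of 7 to 8 weeks. Each of 2 cohorts held an isotype control arm (ctrl/isotype), an anti–PD-1 arm at 10 mg/kg, an anti-MIF arm at 20 mg/kg and a combination arm given both antibodies (anti–PD-1/anti-MIF), all by intraperitoneal injection. The long cohort received 4 doses over 2 weeks and its tumors were taken at day 21, and the short cohort received 2 doses over 1 week and was taken at day 14. PD-1 is an inhibitory receptor of T cells, MIF is an inflammatory cytokine, and all arms carried the same tumor line and the same mouse strain. Sorted CD45+ and CD45– cells were recombined before capture, and the cells of a cohort were run as 1 pooled droplet library, so a cohort cannot be told apart from its library. Within a library the arm of each cell was read from a barcoded antibody, and 1 arm of 1 cohort is the unit that is called a sample here, 8 in all. The labels do not give the number of mice behind an arm, so the p-values below measure only the spread between these arm samples.

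The antibody tags that assigned cells to arms were 15 bases long. They are printed because every value per arm rests on them.
Isotype: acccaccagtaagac
anti-PD1: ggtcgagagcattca
anti-MIF: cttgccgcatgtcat
anti-PD1-MIF: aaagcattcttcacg

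Chemokine receptors are G protein–coupled receptors that let leukocytes move along gradients of small secreted proteins. CCR2 draws monocytes out of the bone marrow toward CCL2, and CCR1 is shared by monocytes, macrophages and neutrophils and binds several inflammatory chemokines. CX3CR1 binds fractalkine and is known from patrolling monocytes, tissue macrophages and some cytotoxic lymphocytes. CCR7 guides mature dendritic cells and naive or central memory T cells to lymph nodes through CCL19 and CCL21, CCR9 responds to CCL25 of thymus and small intestine and is carried by pDCs, and XCR1 marks cDC1s, which follow XCL1 from NK cells and CD8+ T cells.

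After demultiplexing and filtering, 1671 cells of the long cohort and 3119 of the short cohort were kept, 4790 in all, of which 3524 met exactly 1 gate. The gates held 534 T cells, 134 NK cells, 50 pDCs, 153 mature DCs, 56 cDC1s and 2597 Mo/Mac cells. Depth differed between lineages, with a median of 4375 UMIs per T cell, 5703 per NK cell, 6348 per pDC, 7777 per mature DC, 12471 per cDC1 and 7612 per Mo/Mac cell. The arms held between 204 cells (long, isotype) and 1370 cells (short, anti–PD-1), and between 1563467 UMIs (long, isotype) and 8712647 UMIs (long, anti-MIF). Levels are given as CPM, the UMIs of a gene per 1000000 UMIs of the cells in question, and intervals on single values are exact Poisson or Clopper-Pearson intervals at 95%, which cover counting error only. Because RNA was summed over cells, fewer cells carrying a receptor and less RNA per cell cannot be told apart in a CPM value.

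The labels of the gates were checked with markers that the gates did not use. All 5 T cell markers (Cd3d, Cd3g, Trbc2, Cd2 and Lat), all 5 NK markers, all 6 pDC markers, all 5 mature DC markers and all 5 Mo/Mac markers were highest in their own gate, as were 4 of 5 cDC1 markers, with Irf8 highest in pDCs. The mature DC gate also held fibroblast RNA, with a summed 364 CPM over Col1a1, Col3a1 and Dcn, of which Dcn gave 257 CPM, and it ran from 0 to 3224 CPM over the arms. The Mo/Mac gate held neutrophil RNA at a summed 722 CPM over 5 markers (S100a8 354 CPM), and it reached 7050 CPM in the long anti–PD-1/anti-MIF arm against 49.6 CPM in the long anti-MIF arm. Of 4 melanoma genes Mlana, Sox10 and Dct had 0 UMIs in every gate, and Pmel had 7 UMIs in all gated cells, 3 of them in T cells. Some 208 cells met several gates and were left out, and 1058 cells met none. The 2 libraries shared 20 barcodes.

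The receptors were concentrated in different gates, with Ccr1, Ccr2 and Cx3cr1 sharing the same gate. Mature DCs held 90.9% of the Ccr7 UMIs found in gated cells, and pDCs held 86.5% of the Ccr9 UMIs. All 154 Xcr1 UMIs of gated cells lay in cDC1s by construction, since a cell with an Xcr1 UMI met the cDC1 gate and was left out where it met another gate too, which held for 15 cells with 59 Xcr1 UMIs. The Mo/Mac gate held 98.4% of the Ccr1, 93.9% of the Ccr2 and 93.0% of the Cx3cr1 UMIs, but it also held most of the gated cells. The gated cells carried 88.4% of all Ccr2 UMIs of the kept cells and only 40.2% of the Ccr9 UMIs. Another 343 Ccr9 UMIs lay in 45 of the 208 cells that met several gates, a group in which 40 cells met both the pDC and the cDC1 gate.

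**Figure D1:**
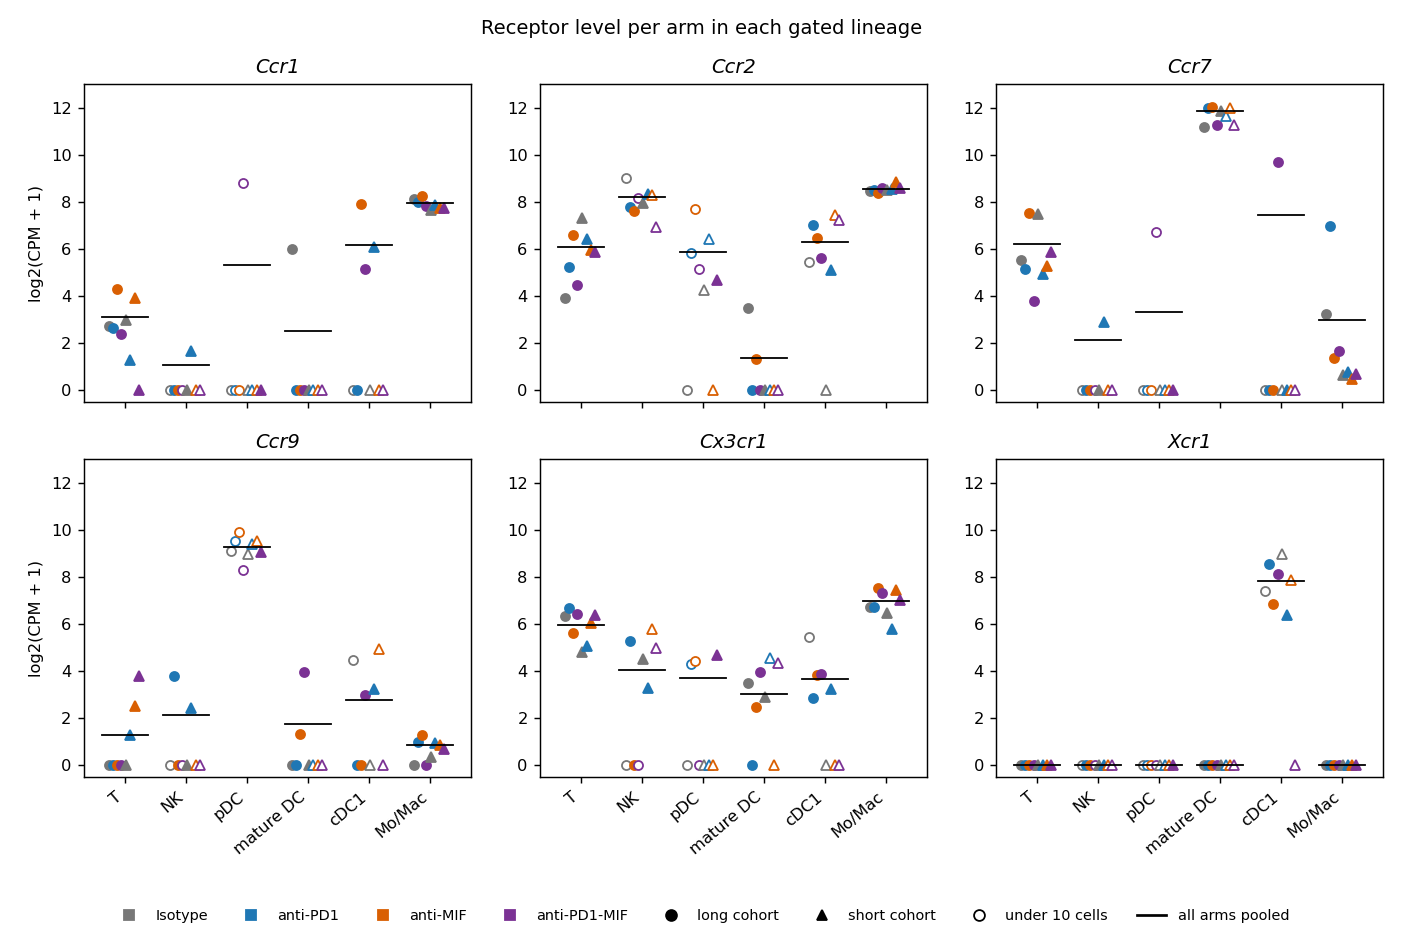
Level of each receptor, as log2(CPM + 1), in the 6 gated lineages (x axis), with circles for the long and triangles for the short cohort, colors for the arms, open symbols for arms with under 10 cells in that lineage and a black line for all arms pooled. Ccr7 sat highest in mature DCs and Ccr9 in pDCs in every arm, Xcr1 lay in cDC1s by the construction of the gate, and Ccr1, Ccr2 and Cx3cr1 were high in all 8 Mo/Mac samples.

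Ccr7 stood out by its level in mature DCs. Its lowest mature DC sample, the long isotype arm, had 2324 CPM, the median over the 8 arms was 3490 CPM and the highest, the long anti-MIF arm, had 4239 CPM. All 8 arms of mature DCs lay above every arm of every other lineage, the next being 818 CPM in the cDC1s of the long anti–PD-1/anti-MIF arm. How many of all genes set mature DCs apart in this way was not counted. Over the 5 arms with at least 10 mature DCs, Ccr7 was higher than in all other gated cells by 6.82 on the log2 scale (SE 0.43, edgeR adjusted p = 3.07e-12). In that comparison 40.6% of all tested genes passed the threshold, and of the 5 receptors tested 1 was higher and 3 were lower. A gene could enter a fit through the class in which it was high, and such counts of receptors are descriptions. This also holds for receptors called lower in a lineage with few of their UMIs, since the other gated cells brought them into the fit. The cDC1 value came from a single cell with 120 Ccr7 UMIs, 101 Il12b UMIs, 12 Ccl22 UMIs, 3 Clec9a UMIs and 1 Xcr1 UMI, and the other 55 cDC1s had none. Without that cell and the top T and Mo/Mac cell for Ccr7, an alternative chosen after seeing the data, the difference was 8.29 (edgeR adjusted p = 2.38e-18). Without cells carrying a UMI of a defining B cell, neutrophil or fibroblast marker it was 6.91 (edgeR adjusted p = 3.20e-16).

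The Ccr7 signal of mature DCs was spread over cells rather than carried by a few. Of 153 mature DCs, 132 had a Ccr7 UMI (86.3%, interval 79.8 to 91.3), with a median of 28 UMIs in the cells that had any and 106 in the highest cell. After each cell was thinned to 2000 UMIs the share was 85.8% (79.1 to 91.0), against 0.119% in Mo/Mac cells, the lineage taken as background for Ccr7. Fscn1, the gate gene, encodes an actin-bundling protein of mature dendritic cells and is not a chemokine receptor. The receptors Ccr1 and Cx3cr1 and the monocyte receptor Ccr2 were all lower in mature DCs. Ccr2 had 2 UMIs in the 153 cells (1.56 CPM, interval 0.189 to 5.62), Ccr1 had 6 UMIs, all in 1 cell, and Cx3cr1 had 9 UMIs at 7.01 CPM.

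**Figure D2:**
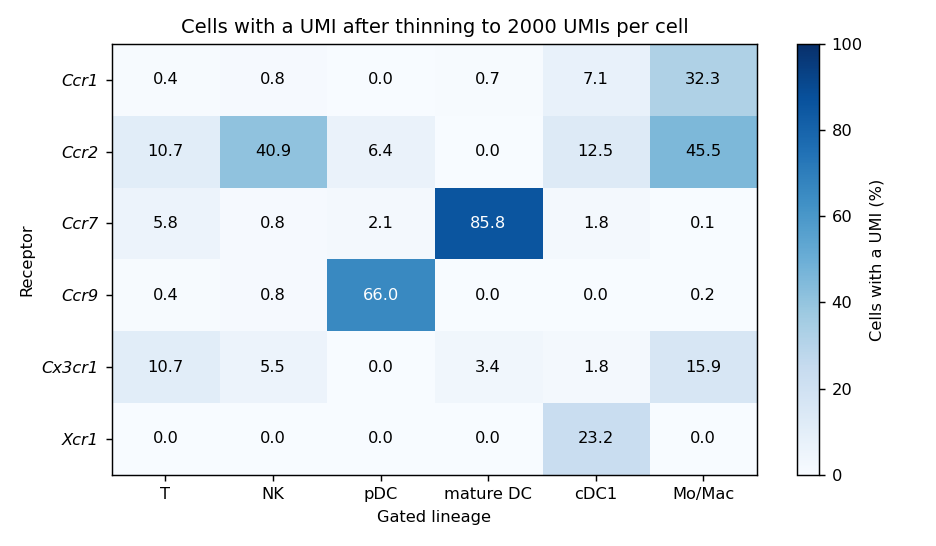
Percent of cells with at least 1 UMI of each receptor (rows) in each lineage (columns) after every cell was thinned to 2000 UMIs and shallower cells were left out. The highest share was Ccr7 in mature DCs (85.8%), followed by Ccr9 in pDCs (66.0%) and Ccr2 in Mo/Mac cells (45.5%) and NK cells (40.9%).

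Xcr1 was used to gate cDC1s, so its level there was partly set by the gate and is a description. It ran from 0 CPM in the single cDC1 of the short anti–PD-1/anti-MIF arm through a median of 201 CPM to 501 CPM in the 2 cDC1s of the short isotype arm. No other lineage could hold an Xcr1 UMI under this gate. When cDC1s were gated on Clec9a alone, a dendritic cell receptor for dead-cell actin, 28 of 52 cells carried Xcr1 (53.8%) at 232 CPM (196 to 272), and the other 3471 gated cells held 5 UMIs in 3 cells. In the 3 arms with at least 10 such cells Xcr1 stood at 262 CPM against 0 UMIs in 1048 other cells, which is at least 922-fold higher when 3 UMIs are taken as the floor over those cells. Xcr1 entered that edgeR fit through the Clec9a-gated sums alone, so no test of it is given. There 6.49% of genes passed, Ccr2 and Cx3cr1 were lower and Ccr1 and Ccr7 did not pass. Within the cDC1 gate on either marker, Xcr1 was in 57.1% of cells and in 23.2% after thinning to 2000 UMIs.

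The other receptors of cDC1s were at lower levels. Ccr2 was found in 16 of 56 cDC1s at 78.5 CPM and Ccr1 in 8 cells at 71.2 CPM. Of the 4 receptors tested 3 were lower than in other gated cells, with 12.5% of genes passing, and Ccr7 did not pass (log2 fold change -1.97, SE 1.13, edgeR adjusted p = 0.328). Cx3cr1 had the largest fitted difference, with a log2 fold change of -3.35 (SE 0.42), on 8 UMIs in the 56 cDC1s (11.6 CPM). It entered the fit through the other gated cells, so its call as lower carries no weight. For Ccr1 the arms were uneven, with 36 of its 49 UMIs in the 11 cDC1s of the long anti-MIF arm at 240 CPM and 0 UMIs in the 13 cells of the long anti–PD-1 arm. Its log2 fold change of -1.58 (SE 0.48, edgeR adjusted p = 0.0429) moved to -2.55 without the long anti-MIF arm. The call was lost without the long anti–PD-1 arm (-1.05, adjusted p = 0.105), the long anti–PD-1/anti-MIF arm (-1.37, adjusted p = 0.208) or the short anti–PD-1 arm (-1.58, adjusted p = 0.218). It was also lost at the stricter hashtag quantile (-1.67, edgeR adjusted p = 0.189), with precedence of gates (-0.83, adjusted p = 0.159), after thinning (-2.03, adjusted p = 0.367) and with no arm block (-1.19, adjusted p = 0.128). For Ccr2 the log2 fold change was -1.98 (SE 0.33, edgeR adjusted p = 8.75e-04), and that call was lost after thinning (-1.35, adjusted p = 0.401).

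Ccr9 was the pDC receptor of the set. It was found in 42 of 50 pDCs (84.0%, interval 70.9 to 92.8) with a median of 4 UMIs in those cells, and in 66.0% (50.7 to 79.1) after thinning, against 0.199% of Mo/Mac cells. The arms ran from 310 CPM in the 2 pDCs of the long anti–PD-1/anti-MIF arm through a median of 613 CPM to 960 CPM in the 7 pDCs of the long anti-MIF arm. Every one of the 8 arms lay above every arm of the other 5 lineages, where the highest was 29.2 CPM, 1 UMI in the 3 cDC1s of the short anti-MIF arm. The share of all genes that set pDCs apart in this way was not counted, so this is a description. Because only the short anti–PD-1/anti-MIF arm had at least 10 pDCs, a pDC fit of its own was not made. In Mo/Mac cells Ccr9 had 18 UMIs in 18 cells (0.82 CPM), in T cells 4 UMIs and in NK cells 3 UMIs.

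Ccr2 and Ccr1 were the abundant receptors of Mo/Mac cells. Ccr2 had 356 CPM in the isotype, 367 in the anti–PD-1, 334 in the anti-MIF and 382 in the anti–PD-1/anti-MIF arm of the long cohort. In the short cohort Ccr2 had 361, 375, 456 and 388 CPM in the same order. The 8 samples averaged 377 ± 35.7 CPM (mean ± SD, n = 8) and ran from 334 to 456 CPM, and the short anti-MIF arm stood above the rest. Against all other gated cells Ccr2 was higher by 2.58 on the log2 scale (SE 0.19, edgeR adjusted p = 4.83e-08). Here 56.4% of genes passed, and of the 5 receptors tested 3 were higher and 2, Ccr7 and Ccr9, were lower. Ccr9, with 18 UMIs in Mo/Mac cells, entered that fit through the other gated cells, so its call carries no weight.

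Ccr1 in Mo/Mac cells had 274, 251, 308 and 224 CPM in the isotype, anti–PD-1, anti-MIF and combination arms of the long cohort, and 201, 234, 211 and 211 CPM in those of the short cohort. Its mean was 239 ± 36.6 CPM (SD, n = 8), and the other gated cells were lower by 4.62 on the log2 scale (SE 0.35, edgeR adjusted p = 7.44e-08). Outside this gate Ccr1 was highest in cDC1s, at 71.2 CPM with 49 UMIs in 8 cells, and had 1 UMI in 134 NK cells, 21 UMIs in 534 T cells and 13 UMIs in pDCs, all 13 in 1 cell. Cx3cr1 was lower in level and more variable, at 124 ± 44.8 CPM (SD, n = 8), and it was higher than in other gated cells by 2.02 (SE 0.21, edgeR adjusted p = 2.09e-06).

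Single Mo/Mac cells carried these 3 receptors both together and apart. Ccr2 was found in 74.1% of them, Ccr1 in 61.5% and Cx3cr1 in 34.8%, and after thinning in 45.5% (43.6 to 47.5), 32.3% (30.4 to 34.1) and 15.9% (14.5 to 17.3). The background shares after thinning were 0.427% for Ccr1 in T cells, and 0 of 148 cells for Ccr2 and 3.38% for Cx3cr1 in mature DCs, at a median of 4375 and 7777 UMIs per cell before thinning. Of 2516 Mo/Mac cells deep enough to be thinned, 394 had both Ccr1 and Ccr2, 183 had both Ccr2 and Cx3cr1, 57 had all 3 and 788 (31.3%) had none at that depth.

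Lymphocytes divided the same receptors differently. In NK cells Ccr2 was the most abundant receptor of the set, with 85 of 134 cells positive (63.4%, and 40.9% after thinning) and 295 CPM (261 to 333). Its lowest arm had 121 CPM, the median was 266 CPM and the highest arm, of 4 cells, had 519 CPM. Against all other gated cells the NK value differed by -0.57 (SE 0.25), which did not pass (edgeR adjusted p = 0.0732, interval -1.06 to -0.09). It did pass with at least 5 cells per sum (-0.75, edgeR adjusted p = 0.00126) and with no arm block (-0.58, adjusted p = 0.00844). Of the 5 receptors tested in NK cells none was higher and 3 were lower, with 28.7% of genes passing. Those were Ccr1 with 1 UMI, Ccr7 with 3 UMIs in 2 cells and Cx3cr1 with 14 UMIs at 15.6 CPM.

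T cells carried less of each receptor than all other gated cells, with all 5 tested receptors lower where 59.3% of genes passed. The call of Ccr9, with 4 UMIs in T cells, carries no weight, since it entered that fit through the other gated cells. Ccr1 had the largest fitted difference, at 7.52 CPM on 21 UMIs (log2 fold change -5.18, SE 0.26). It too entered that fit through the other gated cells, and its call carries no weight either. Ccr2 stood at 67.0 CPM (-2.77, SE 0.24, edgeR adjusted p = 1.11e-08). Cx3cr1 was the least reduced, at 60.5 CPM in 100 of 534 cells (-1.02, SE 0.20, edgeR adjusted p = 2.79e-04). Ccr7 in T cells was at 73.1 CPM in 46 cells, and 4 of these held 52.5% of its 204 UMIs. They were Cd8a-positive cells with 40, 27, 24 and 16 Ccr7 UMIs, each with Cd3e and Cd3g UMIs and none of Lyz2, Fscn1 or Xcr1. In the same order they held 10, 0, 3 and 45 UMIs of Ly6c2, a gene of the Mo/Mac gate.

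**Figure D3:**
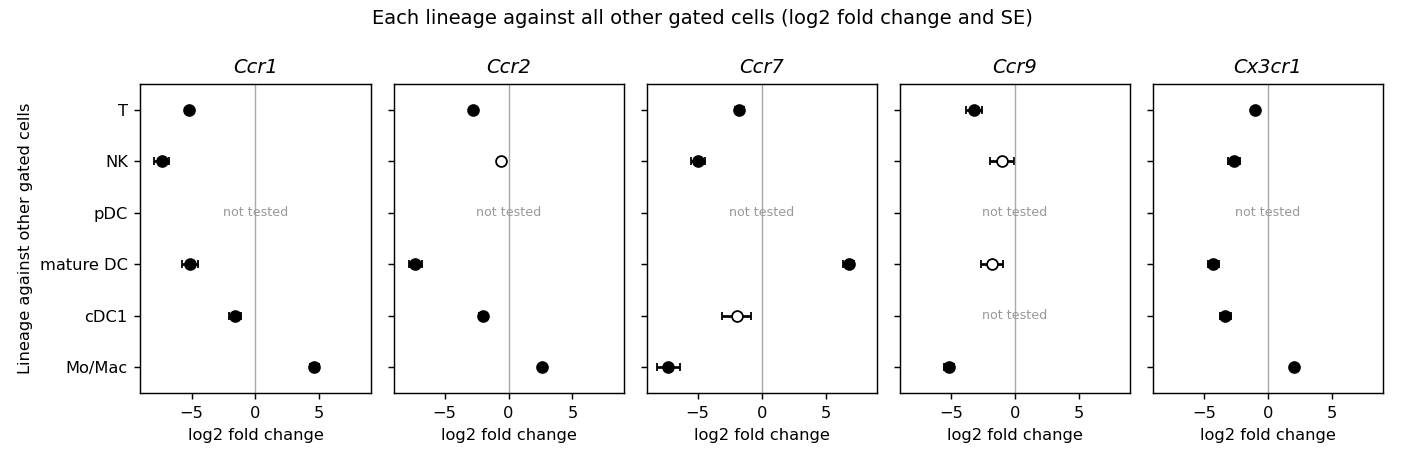
Log2 fold change (x axis, with its SE) of each receptor in 1 lineage (rows) against all other gated cells, filled where it passed at an adjusted p of 0.05 and open where it did not. Mo/Mac cells were higher in Ccr1, Ccr2 and Cx3cr1 (4.62, 2.58 and 2.02), mature DCs in Ccr7 (6.82), and fitted values for lineages with 3 or fewer UMIs depend on the prior count of the fit.

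A joint fit of all lineages compared neighbors in the order of mean CPM over the arms with at least 10 cells, with pDCs resting on 1 sample throughout. Ccr1 was highest in Mo/Mac cells, which exceeded cDC1s by 1.89 (SE 0.47, edgeR adjusted p = 0.00327, 20.3% of genes passing), and cDC1s exceeded mature DCs by 4.04 (SE 0.89, edgeR adjusted p = 8.92e-04, 29.4% passing). Below these, no difference between neighbors among mature DCs, T cells, NK cells and pDCs passed the threshold. For Ccr2, Mo/Mac cells exceeded NK cells by 0.97 (SE 0.33, edgeR adjusted p = 0.0189, 40.4% passing) and NK cells exceeded cDC1s by 1.44 (SE 0.45, edgeR adjusted p = 0.017, 23.2% passing). No neighbors from cDC1s through T cells and pDCs to mature DCs passed. The steps to and from pDCs rest on 1 sample and could hardly pass. The contrast of T cells (mean 66.0 CPM) with mature DCs (2.38 CPM), which are not neighbors in this order, is not given here. For Cx3cr1, Mo/Mac cells exceeded T cells by 1.12 (SE 0.18, edgeR adjusted p = 5.10e-06, 59.9% passing), and none of the lower neighbors passed. There too T cells stood next to the lone pDC sample, and their contrasts with NK cells, cDC1s and mature DCs are not given here. For Ccr7, mature DCs exceeded cDC1s by 4.15 (SE 1.17, edgeR adjusted p = 0.0073) and T cells exceeded Mo/Mac cells by 3.09 (SE 0.97, edgeR adjusted p = 0.00688), while the difference of 0.85 between cDC1s and T cells did not pass (SE 1.24, edgeR adjusted p = 0.644). For Ccr9 no test is given, since the gene entered the joint fit through the lone pDC sample of 44 UMIs.

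The Mo/Mac gate was then divided by its markers. Ly6c2 is carried by inflammatory monocytes and C1qb, a chain of complement C1q, by differentiated macrophages; 1610 cells had only Ly6c2 with Lyz2, 451 only C1qb and 536 both. Cx3cr1 stood at 94.8 CPM (89.4 to 100) in Ly6c2-only cells, 116 CPM in cells with both and 213 CPM (200 to 228) in C1qb-only cells. In the long cohort the Ly6c2-only cells had 95.6, 85.2, 102 and 100 CPM in the isotype, anti–PD-1, anti-MIF and combination arms, and the C1qb-only cells had 240, 198, 237 and 250 CPM. In the short cohort the values were 70.8, 60.2, 161 and 152 CPM against 142, 63.1, 288 and 72.8 CPM. C1qb-only cells were thus higher in 7 of 8 arms, the exception being the short anti–PD-1/anti-MIF arm with 9 such cells. Of the 7, the long isotype arm held 6 such cells, with all 7 UMIs in 1 of them. In the short anti–PD-1 arm the intervals overlapped, at 33.6 to 108 CPM against 52.8 to 68.4 CPM. The share of all genes higher in 7 of 8 arms was not counted.

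Over the 6 arms with at least 10 cells of each kind, Cx3cr1 was lower in Ly6c2-only cells, with a log2 fold change of -1.0 (SE 0.15, edgeR adjusted p = 1.58e-04). Of the 3 receptors tested 1 was lower and 1 higher, with 26.8% of genes passing. The receptor that was higher was Ccr2, at 386 CPM against 258 CPM (log2 fold change 0.56, SE 0.19, edgeR adjusted p = 0.0369), and this call was lost in cells thinned to 2000 UMIs (0.38, adjusted p = 0.0675) and without the long anti-MIF arm (0.54, adjusted p = 0.0962), the long anti–PD-1/anti-MIF arm (0.61, adjusted p = 0.0613), the short isotype arm (0.61, adjusted p = 0.0717) or the short anti-MIF arm (0.56, adjusted p = 0.0929). Ccr1 was at 223 against 222 CPM pooled and did not pass (0.31, SE 0.15, edgeR adjusted p = 0.138). Cells with both markers had the highest Ccr1 and Ccr2 levels of the 3 groups, at 312 and 430 CPM, and they were left out of the test.

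**Figure D4:**
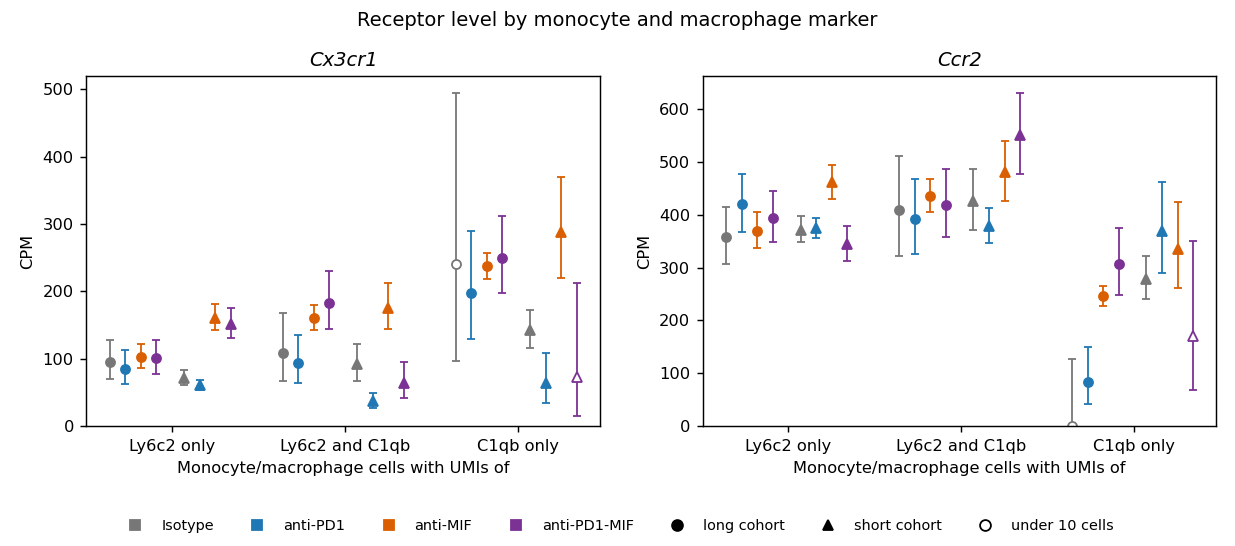
Cx3cr1 (left) and Ccr2 (right) in CPM (y axis, exact Poisson intervals) for Mo/Mac cells with UMIs of Ly6c2 only, of both markers or of C1qb only (x axis), with circles for the long and triangles for the short cohort, colors for the arms and open symbols under 10 cells. Cx3cr1 was 94.8 CPM pooled in the first and 213 CPM in the last group, and Ccr2 was 386 and 258 CPM.

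T cells were divided in the same way into 359 with Cd8a only and 62 with Cd4 only. Only 3 arms held at least 10 of each, the long anti-MIF, short isotype and short anti–PD-1 arms. In these, Ccr2 was at 6.60, 45.7 and 82.9 CPM in Cd8a-only and 478, 291 and 161 CPM in Cd4-only cells. The 5 other arms held fewer Cd4-only cells, and in the long anti–PD-1 arm 6 of these had 0 UMIs, against 20.5 CPM in Cd8a-only cells. In the long anti-MIF arm 19 of the 39 Ccr2 UMIs of Cd4-only cells came from 1 of 15 cells. Ccr7 went the other way, with 198, 396 and 28.3 CPM in Cd8a-only cells and 0, 0 and 20.2 CPM in Cd4-only cells, the last being 1 UMI. In the long anti-MIF arm 40 and 27 of its 90 Ccr7 UMIs came from single cells, and in the short isotype arm 24 of 26 came from 1 cell. In that comparison 11.0% of genes passed, but Ccr2 entered the fit through the Cd4-only and Ccr7 through the Cd8a-only sums alone, so no test of either is given. Cx3cr1 was not tested, but 153 of its 169 T cell UMIs lay in Cd8a-only cells (72.9 CPM) and 5 in Cd4-only cells (15.6 CPM).

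The treatment arms were compared within Mo/Mac and T cells, the lineages with at least 10 cells in all 8 samples, in a model with anti-MIF, anti–PD-1 and cohort as terms. In Mo/Mac cells Cx3cr1 had 105 CPM in the isotype arm, 103 in the anti–PD-1 arm, 182 in the anti-MIF arm and 158 in the anti–PD-1/anti-MIF arm of the long cohort. In the short cohort the same arms had 87.9, 54.8, 175 and 129 CPM. The 4 arms given anti-MIF thus lay between 129 and 182 CPM and the 4 arms without it between 54.8 and 105 CPM, with no overlap, and the arm with anti-MIF was higher in 4 of 4 pairs. Of all genes tested, 2.32% were higher in the arms with anti-MIF without overlap. Cells of a further hashtag, which the files name anti-PD1-MIF-DDT and the labels do not describe, entered no fit and are not among these arms. Their Mo/Mac cells had Cx3cr1 at 37.7 CPM in the long and 77.2 CPM in the short library, below the isotype arm in both.

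The fitted Cx3cr1 difference with anti-MIF was 0.86 on the log2 scale (SE 0.15, 1.82-fold). After adjustment over 9474 genes it did not pass (edgeR adjusted p = 0.491). No gene passed for anti-MIF in Mo/Mac cells (0.0% of genes, 0 of 4 receptors, and 694 genes at an unadjusted p under 0.05), while DESeq2 passed 8 genes with Cx3cr1 among them (adjusted p = 0.018). Ccr1 (-0.07, SE 0.13) and Ccr2 (0.04, SE 0.13) did not pass and had intervals of -0.32 to 0.18 and -0.21 to 0.29. Within Ly6c2-only cells the anti-MIF difference in Cx3cr1 was 0.77 (SE 0.20, edgeR adjusted p = 0.591), and again the arms did not overlap, which held for 1.78% of genes in that direction. The Ly6c2-only arms lay close in the long cohort, at 102 and 100 CPM with anti-MIF against 95.6 and 85.2 CPM without it, and far apart in the short cohort, at 161 and 152 against 70.8 and 60.2 CPM. In the long cohort 1 cell gave 20 of the 47 Cx3cr1 UMIs of the Ly6c2-only isotype arm and 1 cell gave 22 of 47 in the anti–PD-1 arm. In C1qb-only cells the arms with and without anti-MIF overlapped in both cohorts, but only through arms of under 10 cells. These were the long isotype arm (240 CPM, 6 cells, all 7 UMIs in 1 cell) and the short anti–PD-1/anti-MIF arm (72.8 CPM, 9 cells, all 3 UMIs in 1 cell). The arms of at least 10 cells had 237, 250 and 288 CPM with anti-MIF and 198, 142 and 63.1 CPM without it, which was not tested. The makeup of the gate also differed between arms, since C1qb-only cells were 7.89% to 44.4% of Mo/Mac cells in the long and 3.70% to 23.9% in the short cohort, with the highest share in the long anti-MIF arm. Without the cells that carried a UMI of a defining B cell, neutrophil or fibroblast marker, an alternative chosen after seeing the data, the difference was again 0.86. The part of the makeup of the gate in the Cx3cr1 values was otherwise not tested.

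**Figure D5:**
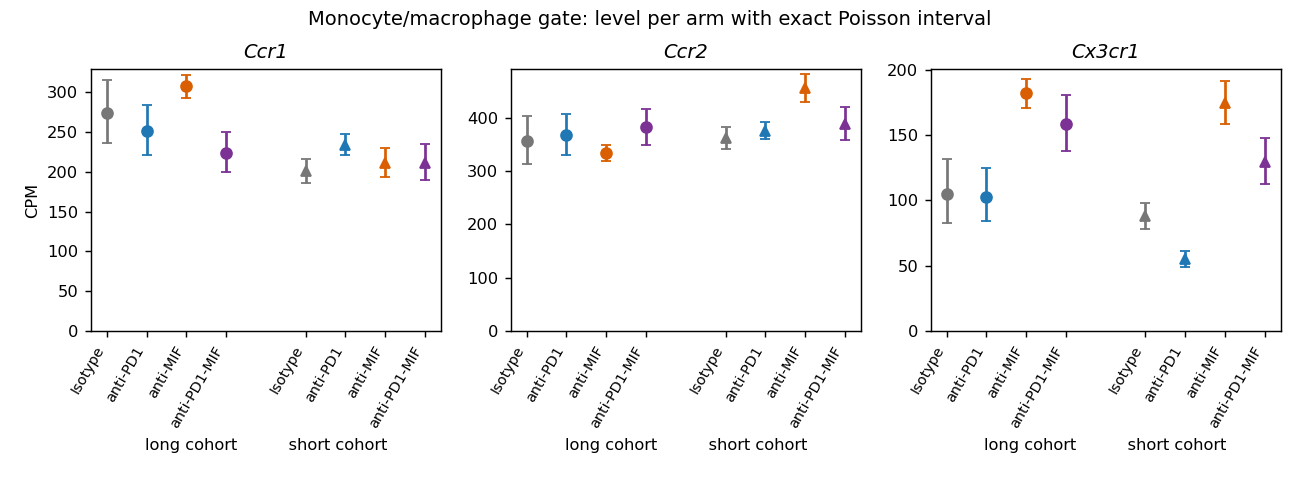
Ccr1, Ccr2 and Cx3cr1 in Mo/Mac cells in CPM (y axis from 0, exact Poisson intervals) for the 4 arms of the long cohort (circles) and the short cohort (triangles). The 4 arms given anti-MIF lie above the 4 others for Cx3cr1 (129 to 182 against 54.8 to 105 CPM) and not for Ccr1 or Ccr2.

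Anti–PD-1 moved none of these receptors past the threshold in Mo/Mac cells. Cx3cr1 was lower in the arm with anti–PD-1 in 4 of 4 pairs, with a log2 fold change of -0.32 (SE 0.15, edgeR adjusted p = 0.901), and Ccr1 and Ccr2 were at -0.06 and 0.04. No gene passed in that comparison (0.0% of genes, 506 at an unadjusted p under 0.05, and 2 genes with DESeq2). Between the cohorts 7.09% of genes passed. Ccr7 had 8.52, 124, 1.57 and 2.19 CPM in the 4 long arms and 0.571, 0.733, 0.393 and 0.616 CPM in the 4 short arms. Of the 124 Ccr7 UMIs of the long anti–PD-1 arm 114 came from 1 cell that had 1 UMI each of Lyz2 and Ly6c2 together with 13 of Ccl22 and 23 of Il12b. Ccr7 entered the fit through the long isotype and long anti–PD-1 arms, without either of which no value was obtained, so no test of it is given. Cx3cr1 (0.36, SE 0.15) and Ccr1 (0.29, SE 0.13) were not past the threshold between cohorts (edgeR adjusted p = 0.162 and 0.178).

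T cells showed no receptor that passed for treatment. Ccr7 had 45.3, 34.2, 182 and 12.9 CPM in the isotype, anti–PD-1, anti-MIF and combination arms of the long cohort and 177, 29.4, 37.5 and 56.9 CPM in those of the short cohort. The arms with and without anti–PD-1 overlapped, and the fitted difference of -1.79 (SE 0.53) had an edgeR adjusted p of 0.996. It passed with no filter on low counts (-1.75, edgeR adjusted p = 2.01e-05), and it was -0.29 with precedence of gates and ran from -2.36 to -1.16 with 1 arm left out. For anti–PD-1 0.0% of genes and 0 of 3 receptors passed (196 genes at an unadjusted p under 0.05, 0 with DESeq2), for anti-MIF 0.0383% of genes and 0 of 3 receptors, and for the long cohort 7.31% of genes and 0 of 3. Cx3cr1 in T cells had 79.3, 102, 47.2 and 85.9 CPM in the long and 27.2, 32.2, 65.6 and 82.2 CPM in the short cohort, with a cohort difference of 0.66 (SE 0.36, edgeR adjusted p = 0.279).

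NK cells and dendritic cells had too few cells per arm for the treatment model, so their arms are values with counting error only. In mature DCs Ccr7 had 2324, 4015, 4239 and 2499 CPM in the 4 long arms and 3728, 3253, 4034 and 2478 CPM in the 4 short arms, in the order isotype, anti–PD-1, anti-MIF and combination. The anti-MIF value rested on 72 cells in the long cohort and on 5 in the short cohort, where 1 cell gave 81 of the 146 Ccr7 UMIs. UMIs of 1 cell are not independent, so the counting intervals are too narrow for a comparison of these arms. In pDCs Ccr9 had 551, 743, 960 and 310 CPM in the long and 500, 674, 742 and 536 CPM in the short cohort, in the same order. Both cohorts thus had anti-MIF highest, with an interval of 705 to 1276 CPM in the long cohort that also held the anti–PD-1 value, and of 272 to 1614 CPM in the short cohort that held all 4 values.

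A list of 17 other chemokine receptors was read in the same fits. Of all genes, 59.3% passed in T cells, 28.7% in NK cells, 56.4% in Mo/Mac cells, 40.6% in mature DCs and 12.5% in cDC1s. In T cells 3 of 6 listed receptors tested passed as higher and 3 as lower, led by Cxcr6, a receptor of resident and effector T cells (433 CPM), Ccr8, known from tumor regulatory T cells (56.9 CPM), and Cxcr3, the receptor of interferon-induced chemokines (46.2 CPM, log2 fold change 2.89). Of the gated UMIs of Cxcr6 1208 of 1222 and of Ccr8 159 of 162 lay in T cells, so these genes entered the fit through T cells and their calls carry no weight. In NK cells 1 of 6, Cxcr3, was higher (1.56, edgeR adjusted p = 0.0233) and 3 were lower. Pooled over arms, Cxcr3 was highest in pDCs (76.0 CPM, 25 UMIs), above T cells, cDC1s (40.7 CPM) and NK cells (24.5 CPM). Mo/Mac cells, most of the gated cells, had 2.41 CPM. In Mo/Mac cells Cxcr4 and Ccrl2 were higher (2.23 and 2.55) and 4 of 7 were lower. In mature DCs the lymphoid-tissue receptors Cxcr5 and Ccr6 stood at 19.5 CPM each, on 25 UMIs, having entered the fit through mature DCs so that their calls carry no weight either, and 6 of 8 were lower, and in cDC1s Cxcr3 was higher (1.60) and 4 of 5 were lower. Median log2 fold changes over these lists were 0.62 in T cells, -1.17 in NK cells and -3.53 in mature DCs. They were -1.67 in cDC1s and -4.03 in Mo/Mac cells. Over all genes tested, the medians were -0.04, -0.15, -0.20, -0.09 and -0.03 in the same order. The list medians include genes that entered a fit through 1 class, among them Cxcr6 (-7.81) and Ccr8 (-8.33) in Mo/Mac cells. They are descriptions, and no contrast with all genes is drawn from them.

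The ligands of the 6 receptors were found in part in the same gates. Of the CCR2 ligands, Ccl2 had 460 CPM, Ccl12 238 CPM and Ccl7 147 CPM in Mo/Mac cells and no more than 27.6 CPM in any other gated lineage. Over the 8 Mo/Mac samples Ccl2 ran from 339 through a median of 447 to 798 CPM. The CCR1 ligands Ccl6 (475 CPM) and Ccl9 (182 CPM) were also highest in Mo/Mac cells. Pooled over arms, Ccl3 was highest in T cells (501 CPM) and Ccl5 in mature DCs (6828 CPM), NK cells (3898 CPM) and T cells (3209 CPM). The samples overlapped, with Ccl3 from 34.0 to 1175 CPM in T, 102 to 584 in NK and 115 to 327 CPM in Mo/Mac cells. Ccl5 ran from 3102 to 9722 CPM in mature DCs, 2627 to 6083 in NK and 843 to 5010 CPM in T cells. Ccl4 had 2617 CPM in pDCs and 1967 CPM in T cells pooled over arms, but the only pDC sample of at least 10 cells had 1412 CPM, within the range of 326 to 4132 CPM over the T cell samples. Xcl1, the ligand of XCR1, had 1436 CPM in NK cells and 140 CPM in T cells, with 827 to 2099 CPM over the 4 NK samples and 21 to 239 CPM over the 8 T cell samples. The CCR7 ligands Ccl19 and Ccl21a had 4 and 1 UMIs in all gated cells, Ccl25 stayed at or below 13.4 CPM in every lineage, and Cx3cl1, the ligand of CX3CR1, was highest in mature DCs at 44.4 CPM beside the fibroblast RNA of that gate.

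Genes with the most similar pattern over the 30 samples of at least 10 cells per arm and lineage were sought among 9960 genes by Pearson correlation of log2(CPM + 10). For Ccr1 these were Clec4a1 (r = 0.976), Fcgr1 (0.965) and Sirpb1a (0.955), and for Ccr7 they were Socs2 (0.934), Cacnb3 (0.908) and Nudt17 (0.907). For Xcr1 they were the gate gene Clec9a (0.99), Tlr3 (0.962) and Asb2 (0.925), and for Ccr9 the gate gene Siglech (0.930), Gm21762 (0.930) and Iglc3 (0.929), where the pDCs gave 1 of the 30 points. The likeness was weaker for Ccr2, with Tln1 (0.896), Tgfb1 (0.874) and Aoah (0.869), and for Cx3cr1, with Dusp6 (0.852), Ms4a4a (0.830) and E2f2 (0.814). The points share libraries and arms, and the correlations are descriptions.

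Of the 6 genes, 5 lie on chromosome 9 of the mouse genome (GRCm38, GENCODE annotation), and Ccr7 lies alone on chromosome 11 at chr11:99144196-99155077 on the minus strand. Ccr9 (chr9:123678439-123784330, plus strand), Xcr1 (chr9:123852315-123862029, minus), Ccr1 (chr9:123962124-123968692, minus) and Ccr2 (chr9:124101950-124113557, plus) form a row in which Xcr1 and Ccr1 start 107 kb apart and Ccr1 and Ccr2 133 kb apart. Cx3cr1 (chr9:119901616-120069879, minus) starts 4032 kb from Ccr2. Along these genes the lineage changed from pDCs (Ccr9) to cDC1s (Xcr1, by the construction of the gate) to Mo/Mac cells (Ccr1). Ccr1 and Ccr2, next to each other among the 6, shared the Mo/Mac gate. Other genes lying between them were not considered. The 250 bases upstream of Ccr1 and Xcr1 are shown beside this difference in lineage. They come from the RefSeq table of build GRCm38.p6, on the minus strand at chr9:123968693-123968942 and chr9:123862030-123862279. Capitals mark AGGAA, the core letters of ETS family sites such as that of PU.1, on either strand.
Ccr1: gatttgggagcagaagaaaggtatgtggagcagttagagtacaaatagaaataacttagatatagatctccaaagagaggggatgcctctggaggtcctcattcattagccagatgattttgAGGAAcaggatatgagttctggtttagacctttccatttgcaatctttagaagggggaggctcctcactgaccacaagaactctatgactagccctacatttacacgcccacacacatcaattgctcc
Xcr1: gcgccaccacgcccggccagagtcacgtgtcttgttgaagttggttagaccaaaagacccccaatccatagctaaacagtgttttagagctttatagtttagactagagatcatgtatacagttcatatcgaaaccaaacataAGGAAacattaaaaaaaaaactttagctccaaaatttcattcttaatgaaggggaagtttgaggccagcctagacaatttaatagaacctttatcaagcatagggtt
The letters AGGAA were found on either strand in the 250 bases before all 5 receptors with an entry in the table, Ccr7 having none there, and in 60.3% of the 32851 promoters of that length.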

How the data were processed

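Each cohort gave 1 pooled 5′ gene expression library and 1 hashtag library. The authors deposited filtered gene-cell matrices of raw UMI counts, made per the labels with Cell Ranger 7.1.0 on mm10; the submitters' processing notes also name Seurat 5.1.0, R 4.3.2 and DESeq2. The counts were not normalized by the authors. The libraries held 2516 (long) and 4987 (short) barcodes, with 23702910 and 31799441 UMIs. Hashtags were called with HTODemux (Seurat 5.3.0, R 4.3.3, positive quantile 0.99), which removed 425 and 626 doublets and 24 and 176 negatives. Cells with fewer than 200 or more than 5000 genes or more than 5% mitochondrial UMIs were removed, limits given in the study's methods. Doublets within an arm were not removed and no doublet caller was run. Cells of the hashtag anti-PD1-MIF-DDT, which the labels do not describe, were left out of all fits and are only given as values beside the isotype arm.

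A marker counted from 1 UMI, and cells of several gates were left out. UMIs were summed per arm and lineage where at least 10 cells were present, and tested over all genes with edgeR 4.0.16 (filterByExpr, TMM, quasi-likelihood test, Benjamini-Hochberg threshold 0.05), with the arm as a block between lineages, and with anti-MIF, anti–PD-1 and cohort as terms between arms. For shares, cells were thinned to 2000 UMIs with random seed 42. Tables were made with python 3.11.15, numpy 2.4.6, pandas 2.3.3 and scipy 1.17.1, and figures with matplotlib 3.10.9. The fits were tested on simulated data. The genes named were the 6 receptors, 17 other receptors, 14 ligands and the 3 genes most similar to each receptor. The values of 1 listed receptor are not reported here. The members and lists were chosen with earlier results of these data known. Alternatives were other hashtag calls, cell limits, gates and depths, RLE size factors, no filter on low counts, DESeq2 1.42.0, no arm block, and each arm left out in turn.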

Additional observations from a re-analysis of the deposited data

Results flagged for a closer look

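In Mo/Mac cells, Ccr2 at 456 CPM in the short anti-MIF arm and Ccr7 at 124 CPM in the long anti–PD-1 arm each stood far from the other 7 arms, as did Ccr9 in T cells at 12.7 CPM in the short anti–PD-1/anti-MIF arm, a value of 2 UMIs. Chance alone sets an arm apart in this way in about 1 in 20 groups. The Ccr7 value rested on 1 cell with 114 UMIs.

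In a pair of cases the arms of the cohorts moved in opposite directions, and neither difference was tested. Ccr1 in Mo/Mac cells differed between arms with anti–PD-1 and their controls by -53.1 CPM in the long cohort (mean over 2 pairs) and by 16.9 CPM in the short cohort. Cx3cr1 in T cells differed between arms with anti-MIF and their controls by -24.3 CPM in the long and 44.2 CPM in the short cohort.

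A hashtag that the files name anti-PD1-MIF-DDT and the labels do not describe marked 322 cells of the long and 993 of the short library. Over all of these cells of the long library Ccr1 was at 266 CPM and Ccr2 at 302 CPM, against 144 and 189 CPM in the isotype arm. In the short library they were at 166 and 265 CPM, against 168 and 297 CPM. Within the 213 Mo/Mac cells of the long library Ccr1 was at 314 CPM against 274 CPM and Ccr2 at 357 CPM against 356 CPM.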

How the results depend on the processing

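For 24 log2 fold changes, 464 alternatives were run, of which 434 kept direction and side of the threshold and 0 reversed a called direction. Where a result changed, the cause was not tested. These counts include results for which no test is given, and for those they say nothing of robustness. They are Xcr1 in Clec9a-gated cells (15 alternatives), Ccr7 and Ccr2 in Cd8a-only against Cd4-only cells (12 and 15), and Ccr7 between cohorts in Mo/Mac cells (17). The anti-MIF difference of Cx3cr1 in Mo/Mac cells passed without a filter on low counts (0.87, adjusted p = 3.87e-04) and with DESeq2 (0.84, adjusted p = 0.018). Ccr7 in Cd8a-only against Cd4-only cells, for which no test is given, had fitted values of 3.63 with MULTIseqDemux and 3.98 with no arm block, which depend on the prior count. Ccr2 in Ly6c2-only against C1qb-only cells was lost with gates of 2 UMIs (0.57), thinning to 2000 UMIs (0.38) and no arm block (0.46), and Ccr1 passed there with no filter (0.43).

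With 1 arm that the fit held left out, log2 fold changes ran from 4.39 to 4.94 for Ccr1, 2.46 to 2.69 for Ccr2 and 1.78 to 2.11 for Cx3cr1 in Mo/Mac cells, and 6.32 to 7.34 for Ccr7 in mature DCs. They ran from -4.78 to -1.5 for Ccr2 in Cd8a-only against Cd4-only cells, again with no test given, and from 0.23 to 0.39 for Ccr1, 0.38 to 0.66 for Ccr2 and -1.11 to -0.92 for Cx3cr1 in Ly6c2-only against C1qb-only cells. For Ccr7 between cohorts in Mo/Mac cells, likewise with no test, they ran from 3.76 to 6.29, and for Cx3cr1 with anti-MIF from 0.72 to 0.98.

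Counts of genes passing after thinning to 2000 UMIs were 2959 (T), 1970 (mature DC), 62 (cDC1), 2716 (Mo/Mac), 925 (Ly6c2-only against C1qb-only), 0 (anti-MIF in T), 64 (cohort in T) and 143 (cohort in Mo/Mac). With no filter they were 235 (Cd8a-only against Cd4-only), 37 and 44 (anti-MIF and anti–PD-1 in T), 75 and 47 (the same in Mo/Mac), 1305 (cohort in Mo/Mac) and 951 (Clec9a-gated). With DESeq2 they were 81 (Cd8a-only against Cd4-only), 1 (anti-MIF in T), 204 (cohort in T), 8 (anti-MIF in Mo/Mac) and 2 (anti–PD-1 in Mo/Mac). With no arm block they were 423 (Cd8a-only against Cd4-only) and 931 (Clec9a-gated). The cDC1 count was 630 at the stricter hashtag quantile. The anti-MIF count in T cells was 0 at that quantile, with gates of 2 UMIs and with precedence of gates, and the cohort count in T cells was 252 with gates of 2 UMIs. MULTIseqDemux gave 1019 (cohort in Mo/Mac) and 1219 (Clec9a-gated), and the Clec9a-gated count was 906 with no upper limit on genes, 832 with precedence of gates and 1002 with 5 cells per sum.

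With 1 arm left out these counts ran from 5103 to 5552 (T), 1547 to 2612 (NK), 2639 to 3541 (mature DC), 564 to 949 (cDC1), 27 to 423 (Clec9a-gated), 5022 to 5586 (Mo/Mac), 1440 to 2042 (Ly6c2-only against C1qb-only), 43 to 266 (Cd8a-only against Cd4-only), 0 to 2 (anti-MIF in Mo/Mac), 0 to 0 (anti–PD-1 in Mo/Mac), 1 to 1022 (cohort in Mo/Mac), 0 to 4 (anti-MIF and anti–PD-1 in T) and 139 to 408 (cohort in T). The lowest came without the short anti–PD-1 arm for NK, cDC1 and Cd8a-only against Cd4-only, without long anti–PD-1/anti-MIF for Clec9a-gated and cohort in T, and without long anti–PD-1 for cohort in Mo/Mac.

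Shares of cells moved most with depth. Unthinned and at 1000 UMIs, Mo/Mac shares were 61.5% and 18.6% for Ccr1, 74.1% and 28.2% for Ccr2, and 34.8% and 9.42% for Cx3cr1, and Ccr9 was in 84.0% and 30.0% of pDCs. Several comparisons could not be fitted with gates of 2 UMIs or after thinning for want of cells, among them Cd8a-only against Cd4-only, and the treatment model could not be fitted in C1qb-only cells. No fit was paired by replicate number, since the labels number only the libraries and not the arms. Instead, arms were set side by side within a cohort, cohort was a term of the treatment fits, and arms were blocked between lineages.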

Other observations

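The cells of the anti-PD1-MIF-DDT hashtag entered no fit, and their values beside the isotype arm were not tested. In its 213 Mo/Mac cells of the long library Cx3cr1 was at 37.7 CPM against 105 CPM in the isotype arm, and in its 634 Mo/Mac cells of the short library it was at 77.2 CPM against 87.9 CPM. Ccr9 in its pDCs was at 893 CPM in 7 cells of the long and 1044 CPM in 6 cells of the short library.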
